A study of Mus musculus with 8 samples.

Results

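The cytosolic ribosomal protein genes were taken as every deposited gene symbol that begins with Rpl or Rps. Symbols that begin with Rps6k (kinases), symbols that contain -ps (pseudogenes), Rps19bp1 and Rpl7l1 were left out. The rule gave 83 of 16649 symbols, 50 of them Rpl (large subunit) and 33 Rps (small subunit). No measured level entered the rule, and 82 of the 83 passed the filter on low counts; Rpl3l, with 11 UMIs over all cells, did not. A UMI (unique molecular identifier) marks 1 captured mRNA molecule.

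Cytosolic ribosomal proteins are built into the small and large subunits of the ribosome in near-equal numbers, and cells keep their mRNAs at matched, high levels. Most of these mRNAs begin with a run of pyrimidines, the terminal oligopyrimidine (TOP) motif, through which the kinase mTOR and the RNA-binding protein Larp1 control their translation and stability. T cells that are activated and divide make many new ribosomes.

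The study compared 4 groups of mouse splenic CD4+ T cells, each with 2 libraries labelled replicates 1 and 2, by single-cell 3-prime RNA sequencing. The groups were Gpr65 knockout (KO) cells polarized to Th22, wild-type (WT) cells polarized to Th22, KO cells polarized to Th17 and WT cells polarized to Th17. Gpr65 encodes a proton-sensing receptor. The Th22 culture had IL-1b at 20 ng/ml, IL-6 at 40 ng/ml, IL-23 at 20 ng/ml and FICZ, an aryl hydrocarbon receptor agonist, at 400 nM. The Th17 culture had IL-1b at 20 ng/ml, IL-6 at 25 ng/ml and IL-23 at 20 ng/ml without FICZ. All mice were female, 10 weeks old and of the strain labelled GPR65, and cells were harvested on day 3. The labels do not state which part of the gene was deleted or in which cells, or whether replicates came from separate mice, so p-values here measure only the spread between these libraries.

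After filtering, 101688 of 104660 deposited cells were kept, 9969 to 15119 per library, with 33826527 to 58895019 UMIs per library. Gpr65 was at 0.858 and 0.866 CPM (counts scaled to a common library total) in the KO Th22 libraries, against 56.4 and 51.7 CPM in the WT Th22 libraries. It was at 1.67 and 1.61 CPM in the KO Th17 libraries, against 75.8 and 71.5 CPM in the WT Th17 libraries, so all 8 libraries matched their genotype labels. The 7 T cell markers summed to 2981 to 4416 CPM, while 5 B cell markers summed to at most 27.7 CPM and the 4 myeloid markers present in the table to at most 3.77 CPM. The median UMIs per cell were 4142 and 3669.5 in the KO Th22 libraries, 2627 and 3679 in the WT Th22 libraries, 2430.0 and 2354 in the KO Th17 libraries, and 2489 and 3847 in the WT Th17 libraries. Of 100483 distinct cell barcodes, 1199 occurred in more than 1 library, and no pair of libraries shared more than 0.56% of the smaller one.

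The 83 genes gave 164251301 of 351619531 UMIs. They took 47.5% and 49.4% of the UMIs of the KO Th22 libraries, against 46.6% and 45.7% of those of the WT Th22 libraries. They took 45.3% and 45.0% of the UMIs of the KO Th17 libraries, against 46.0% and 46.7% of those of the WT Th17 libraries. Both KO Th22 libraries were above the other 6, and both KO Th17 libraries were below them. For Th22 cells the mean share was 48.5% ± 1.33 with the knockout, against 46.2% ± 0.676 without it (SD, n = 2 libraries each). For Th17 cells it was 45.1% ± 0.265 with the knockout, against 46.4% ± 0.531 without it (SD, n = 2 libraries each).

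**Figure D1:**
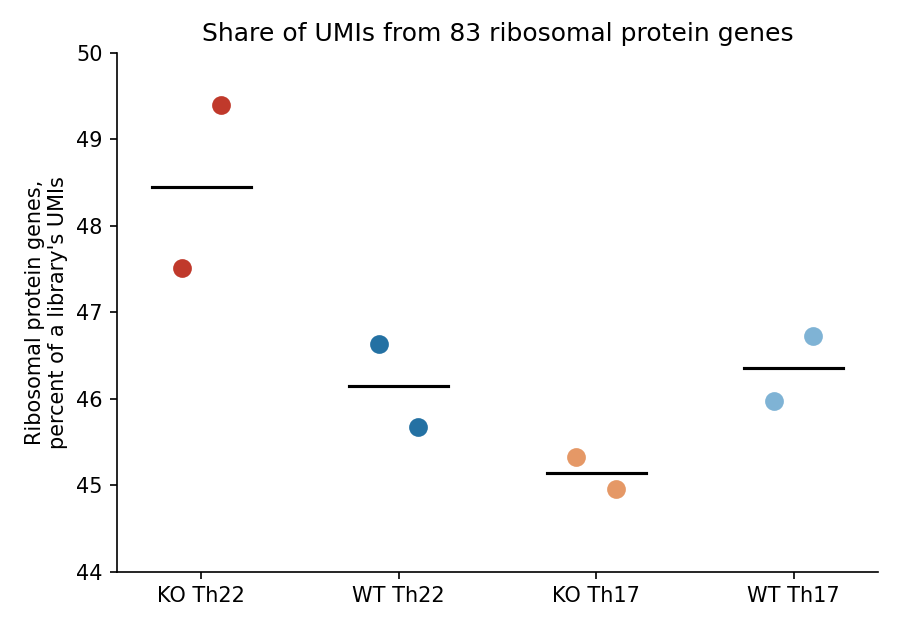
Percent of each library's UMIs that came from the 83 ribosomal protein genes (y axis, starting at 44%), by group (x axis). Each point is 1 library and each line a group mean; the KO Th22 libraries are highest, at 47.5% and 49.4%, and the KO Th17 libraries lowest, at 45.3% and 45.0%.

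Over both polarizations the share averaged 46.8% ± 2.07 among KO libraries, against 46.3% ± 0.51 among WT libraries (SD, 4 libraries on each side), a difference of 0.544 percentage points. An exact two-sided permutation test within polarizations gave p = 0.611 (36 arrangements; the smallest p it can give is 0.0556). Over both genotypes the share was 47.3% ± 1.58 in Th22 and 45.7% ± 0.779 in Th17 (SD, n = 4 each), a difference of 1.56 percentage points with an exact p of 0.278. The KO Th22 library of replicate 2 carried much of both differences. Without it the KO minus WT difference was -0.321 percentage points and the Th22 minus Th17 difference was 0.86 percentage points.

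Large-subunit and small-subunit genes kept their proportion in all libraries, with Rpl genes giving 57.5% to 58.2% of the family's UMIs. Single genes were far from equal: 79 of the 83 averaged over 1000 CPM, 2 (Rps27l and Rps27rt) lay between 100 and 1000 CPM, and 2 (Rpl39l and Rpl3l) were under 10 CPM. Each captured mRNA counts once in this assay, so the levels are not divided by length. The highest were Rpl13 at 12891 CPM and Rpl41 at 12412 CPM, both of the large subunit, and Rpsa at 11759 CPM, the small-subunit protein also known as a laminin receptor. The lowest tested were Rps27l at 339 CPM, Rps27rt, a retrogene copy of Rps27, at 124 CPM, and Rpl39l, a paralog of Rpl39 known from the testis, at 1.31 CPM. Reads that fit Rps27 and Rps27rt, or a gene and its pseudogenes, can be split or dropped in counting, so the levels of such genes are uncertain. These CPM values, and those below, are means or levels scaled by the trimmed mean of M values (TMM).

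The start regions of 5 genes that the results turn on are shown because the pyrimidine run is the family's known shared feature. The sequences are from RefSeq (GRCm38.p6), cover 30 bases before the annotated start and the first 20 transcribed bases, and read 5′ to 3′ on the gene's strand. Capitals mark the longest run of at least 5 C or T bases that reaches beyond 10 bases before the start.
Rpl22l1: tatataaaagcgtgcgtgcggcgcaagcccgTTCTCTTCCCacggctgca
Rps26: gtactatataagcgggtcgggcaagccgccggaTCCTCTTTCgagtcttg
Rpl35: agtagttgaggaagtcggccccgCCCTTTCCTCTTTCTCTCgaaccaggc
Rpl13: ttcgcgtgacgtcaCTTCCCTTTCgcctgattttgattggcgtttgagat
Rps28: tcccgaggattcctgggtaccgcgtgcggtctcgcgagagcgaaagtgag
The windows are chr3:28805478-28805527 (plus strand) for Rpl22l1, chr10:128626487-128626536 (minus) for Rps26, chr2:39005112-39005161 (minus) for Rpl35, chr8:123102320-123102369 (plus) for Rpl13 and chr17:33824543-33824592 (minus) for Rps28. The run is 10 bases long in Rpl22l1, 9 in Rps26, 18 in Rpl35 and 10 in Rpl13, and the Rps28 window holds none that reaches so far. The outermost GENCODE start of the gene lies 72 bases upstream of the RefSeq start for Rpl22l1, 241 bases for Rps26 and 493 bases for Rpl35, and at the same base for Rpl13 and Rps28. Which start these cells use was not tested. Of the 63 genes of the family with an entry, 47 (74.6%) had such a run on the gene's strand. Over all 27025 genes with an entry the share was 51.1%. These 27025 genes outnumber the 16649 deposited symbols. A counted run need not be transcribed: that of Rpl13 lies wholly before its annotated start. The opposite strand was not searched. A run is a description of these letters and not evidence of a functional motif.

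The first comparison asked which of the genes differ between KO and WT cells within each polarization. In Th22 the family lay higher in KO: 70 of the 82 log2 fold changes were positive, with a median of 0.24, against 6796 of 13412 positive and a median of 0.00 over all genes tested. In Th17 it lay lower in KO: 12 of 82 were positive, with a median of -0.09, against 6655 of 13412 and -0.002 over all genes. No member passed the threshold in either polarization (edgeR quasi-likelihood test, adjusted p under 0.05), where 0.149% of all genes passed in Th22 and 0.186% in Th17. At an unadjusted p under 0.05 there were 53 members in Th22, against 11.7% of all genes, and 3 in Th17, against 12.2%. DESeq2 called 1 member in Th22 (Rpl22l1), against 1.07% of all genes, and none in Th17, against 1.49%. The members share each library's ribosomal protein total, so these counts are not independent pieces of evidence.

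In KO Th22 libraries 63 members lay above both WT Th22 libraries, against 20.4% of all genes, and 4 (Rpl35, Rpl38, Rps28 and Rps29) lay below both, against 21.8%. In KO Th17 libraries 3 members (Rpl22l1, Rpl35 and Rpsa) lay above both WT Th17 libraries, against 20.9% of all genes, and 50 lay below both, against 21.7%. Leaving out the KO Th22 library of replicate 2 lowered the median in Th22 to 0.16. The scaling also moved these values. With library totals alone the median of all genes was -0.11 in the Th22 comparison and that of the members 0.12, so the members stood about as far above the other genes.

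Fitted over both polarizations, KO against WT gave no member past the threshold, against 2.93% of all genes, and 2 members (Rpl22l1 and Rpsa) at an unadjusted p under 0.05, against 19.4%. The members' median log2 fold change was 0.05, with 66 of 82 positive, against 6703 of 13412 over all genes. The members' median was -0.0095, with 38 of 82 positive, when the KO Th22 library of replicate 2 was left out. Rpl22l1 and Rpsa were the 2 members whose 4 KO libraries all lay above the 4 WT libraries, against 5.7% of all genes, and no member lay below throughout, against 5.13%.

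Rpl22l1 stood farthest from the rest of the family. It encodes a paralog that can take the place of Rpl22 in the large subunit, and Rpl22 is needed for normal development of alpha-beta T cells in mice. Rpl22l1 lies on the plus strand of chr3:28805436-28807424 (GENCODE M21, GRCm38). Its level was 1520.4 and 1576 CPM in KO Th22, 1089 and 1012 CPM in WT Th22, 1491 and 1416 CPM in KO Th17, and 1127 and 1347 CPM in WT Th17. Every KO library was above every WT library. The log2 fold change over both polarizations was 0.40 ± 0.09 (SE), with an edgeR adjusted p of 0.0581, just short of the threshold. It was 0.56 ± 0.10 in Th22 (adjusted p 0.139) and 0.23 ± 0.10 in Th17 (adjusted p 0.416). The difference between these effects was 0.33 ± 0.14 on the log2 scale and did not pass the threshold.

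Other settings put Rpl22l1 past the threshold over both polarizations. Its edgeR adjusted p was 0.0263 with library totals alone, where 2.32% of all genes passed, and 0.0181 when each library was scaled to its ribosomal protein UMIs, where 2.05% passed. It was 0.0476 without the filter on low counts, where 2.53% passed, and 0.0422 with each cell thinned to 1500 UMIs, where 2.01% passed. DESeq2 gave an adjusted p of 0.00461, with 7.02% of all genes called. Without the WT Th17 library of replicate 2, the WT library in which Rpl22l1 was highest, the log2 fold change was 0.48 with an edgeR adjusted p of 0.0387, where 0.668% of all genes passed. These fits count the 8 libraries as independent. With the libraries of 1 genotype and number summed, 2 KO against 2 WT sums, the log2 fold change was 0.41 ± 0.08 with an edgeR adjusted p of 0.279, where 0.0431% of all genes passed. Over the fits that left out 1 library each, the fold change ran between 0.34 and 0.48 and the adjusted p between 0.0387 and 0.218.

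Rpl22 itself had 3884 and 4362 CPM in KO Th22, 3833 and 3657 CPM in WT Th22, 3192 and 3371 CPM in KO Th17, and 3471 and 4061 CPM in WT Th17. KO and WT overlapped, and the log2 fold change was -0.03 ± 0.10 (edgeR adjusted p 0.902). The ratio of Rpl22l1 to Rpl22 UMIs within a library, which needs no scaling between libraries, was 0.391 and 0.361 in the KO Th22 libraries, against 0.284 and 0.277 in the WT Th22 libraries. It was 0.467 and 0.42 in the KO Th17 libraries, against 0.325 and 0.332 in the WT Th17 libraries. The lowest KO ratio lay above the highest WT ratio, and in both genotypes the Th22 ratios lay below the Th17 ratios.

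**Figure D2:**
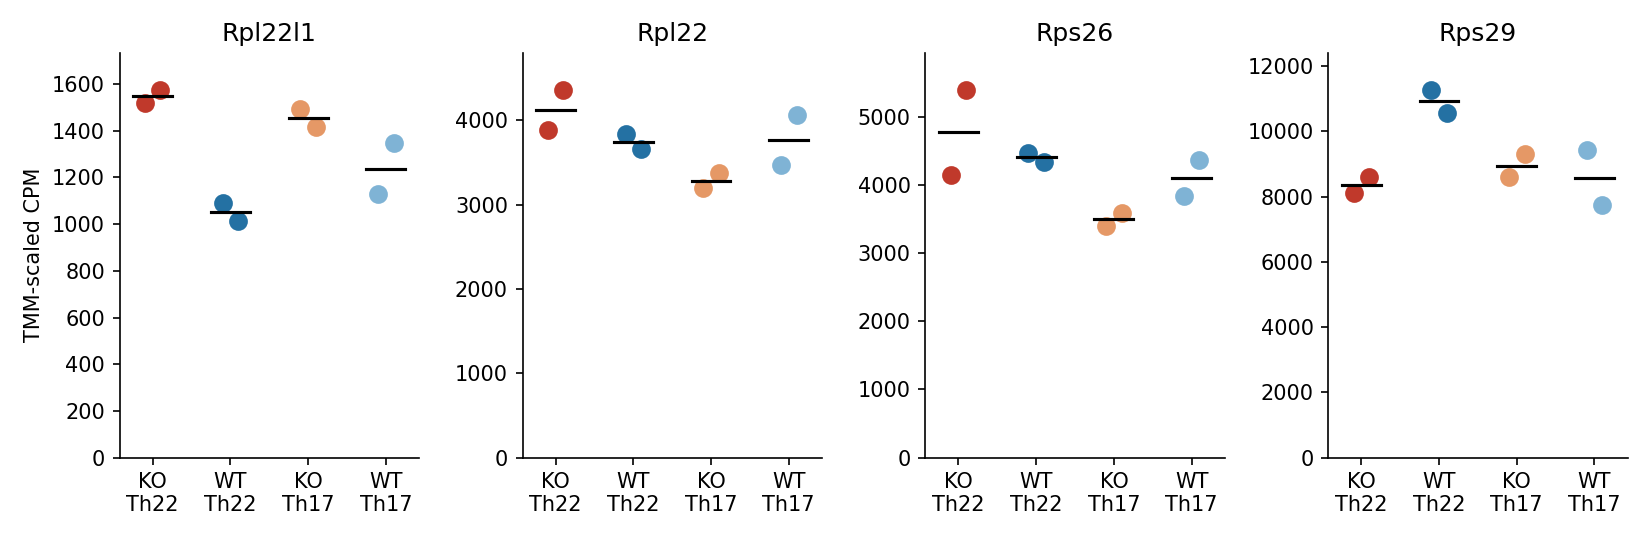
TMM-scaled CPM (y axes, from 0) of Rpl22l1, Rpl22, Rps26 and Rps29 in each library (points) of the 4 groups (x axis), with group means as lines. Rpl22l1 lies between 1416 and 1576 CPM in the 4 KO libraries, above all WT libraries; Rps29 is highest in the WT Th22 libraries.

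Rpl39l was also among the members farthest above the median over both polarizations, with a log2 fold change of 0.25 ± 0.29 (edgeR adjusted p 0.703) on 458 UMIs in all. Farthest below were Rps29, at -0.16 ± 0.11 (adjusted p 0.466), Rps28, at -0.15 ± 0.08 (adjusted p 0.386), and Rpl38, at -0.10 ± 0.09 (adjusted p 0.614). Rps29, Rps28 and Rpl38 encode some of the smallest ribosomal proteins. Rps29 had 8117 and 8597 CPM in KO Th22, 11278 and 10579 CPM in WT Th22, 8594 and 9307 CPM in KO Th17, and 9421 and 7750.2 CPM in WT Th17. Its WT Th22 libraries lay above all others, and in Th17 the genotypes overlapped. None of these members passed the threshold.

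Among the remaining members named for their roles, none passed the threshold over both polarizations. The stalk genes Rplp0, Rplp1 and Rplp2, whose proteins recruit translation factors to the large subunit, had log2 fold changes of 0.12 ± 0.08, 0.14 ± 0.10 and 0.09 ± 0.09. Differences between paralogs were not tested. Rps27 had -0.09 ± 0.08 and Rps27l 0.05 ± 0.08, Rpl36a had -0.03 ± 0.09 and Rpl36al 0.07 ± 0.09, and Rpl39 had -0.09 ± 0.09, beside 0.25 ± 0.29 for Rpl39l. Rps27rt had -0.10 ± 0.10, Rpl3 had 0.03 ± 0.09, Rpl10 had 0.02 ± 0.09 and Rps4x had 0.13 ± 0.09.

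The second comparison set Th22 against Th17 cells. In KO cells 79 of the 82 log2 fold changes were positive with a median of 0.31, against 6999 of 13412 and 0.01 over all genes. Without the KO Th22 library of replicate 2 this median was 0.23. In WT cells 28 were positive with a median of -0.03, against 6711 of 13412 and 0.0002 over all genes. The members' median in WT cells was 0.03, with 57 of 82 positive, when the WT Th17 library of replicate 2 was left out. In KO cells 72 members had both Th22 libraries above both Th17 libraries, against 17.9% of all genes, and 1 (Rpl35) had both below, against 16.5%. In WT cells 9 lay above, against 23.9%, and 17 below, against 22.9%. The edgeR test called no member in KO cells, where 0.119% of all genes passed, or in WT cells, where 0.149% passed. At an unadjusted p under 0.05 there were 64 members in KO cells, against 10.8% of all genes, and 4 in WT cells, against 8.82%. DESeq2 called 2 members in KO cells, Rpl27 (adjusted p 0.0384) and Rps18 (adjusted p 0.0332), against 1.35% of all genes, and none in WT cells, against 1.09%.

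Over 6339 genes the same-numbered libraries of a genotype deviated together from their group means. The same comparison was therefore also fitted with a block for genotype and number. Over the 81 members among these genes the deviations correlated more weakly, at 0.493 in KO and 0.292 in WT. The family's share of UMIs went opposite ways: replicate 1 was above replicate 2 in KO Th17 and WT Th22, and below it in KO Th22 and WT Th17. The labels do not say that a number marks a shared mouse or batch, so the blocked counts rest on a pairing read from the data. In KO cells the blocked edgeR fit called 50 of 82 members, all higher in Th22, against 16.9% of all genes and 8.22% in that direction. These were 28 of 49 Rpl and 22 of 33 Rps genes, with log2 fold changes of 0.25 to 0.50. Of the 32 not called, Rps29, Rps28, Rpl38, Rpl35, Rps27 and Rpl22l1 had log2 fold changes between -0.22 and 0.09 in the unblocked fit. In WT cells it called 2 members, Rps29 (0.35 ± 0.09, adjusted p 0.018) and Rps28 (0.31 ± 0.08, adjusted p 0.022), both higher in Th22, against 12.9% of all genes and 6.21% in that direction. Over both genotypes it called none, against 11.9% of all genes and 5.83% in that direction.

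Rpl27, a large-subunit gene, had the largest fold change between Th22 and Th17 in KO cells. It was at 3889.8 and 4517 CPM in KO Th22, against 2939 and 3003 CPM in KO Th17, and at 3399.9 and 3438 CPM in WT Th22, against 3315 and 3935 CPM in WT Th17. The 2 KO groups did not overlap, while the WT Th22 values lay between the WT Th17 values. The unblocked log2 fold change was 0.50 ± 0.11 in KO cells (edgeR adjusted p 0.183) and -0.08 ± 0.11 in WT cells (adjusted p 0.91). With the block it was 0.50 ± 0.09 in KO cells (adjusted p 0.00241).

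The test of whether the Th22 effect differs between genotypes called no member and no gene (edgeR interaction, 0% of all genes), and DESeq2 called no member, against 0.0447% of all genes. At an unadjusted p under 0.05 there were 57 members, against 4.22% of all genes. The median interaction was 0.35 on the log2 scale, with 74 of 82 positive, against 0.02 over all genes. Without the KO Th22 library of replicate 2 the members' median was 0.26. An unplanned fit with the block for genotype and number called 8 members, against 4.1% of all genes and 1.54% in that direction. These were Rpl27 (0.58 ± 0.12), Rpl9 (0.50 ± 0.11), Rps18 (0.50 ± 0.11), Rpl5 (0.49 ± 0.10), Rpl7a (0.47 ± 0.11), Rps6 (0.46 ± 0.10), Rpl17 (0.45 ± 0.11) and Rpl4 (0.45 ± 0.10), all with a larger Th22 effect in KO. Rpl5 binds the ribosomal 5S RNA and the p53 regulator Mdm2, and Rps6 is the classic target of the S6 kinases.

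**Figure D3:**
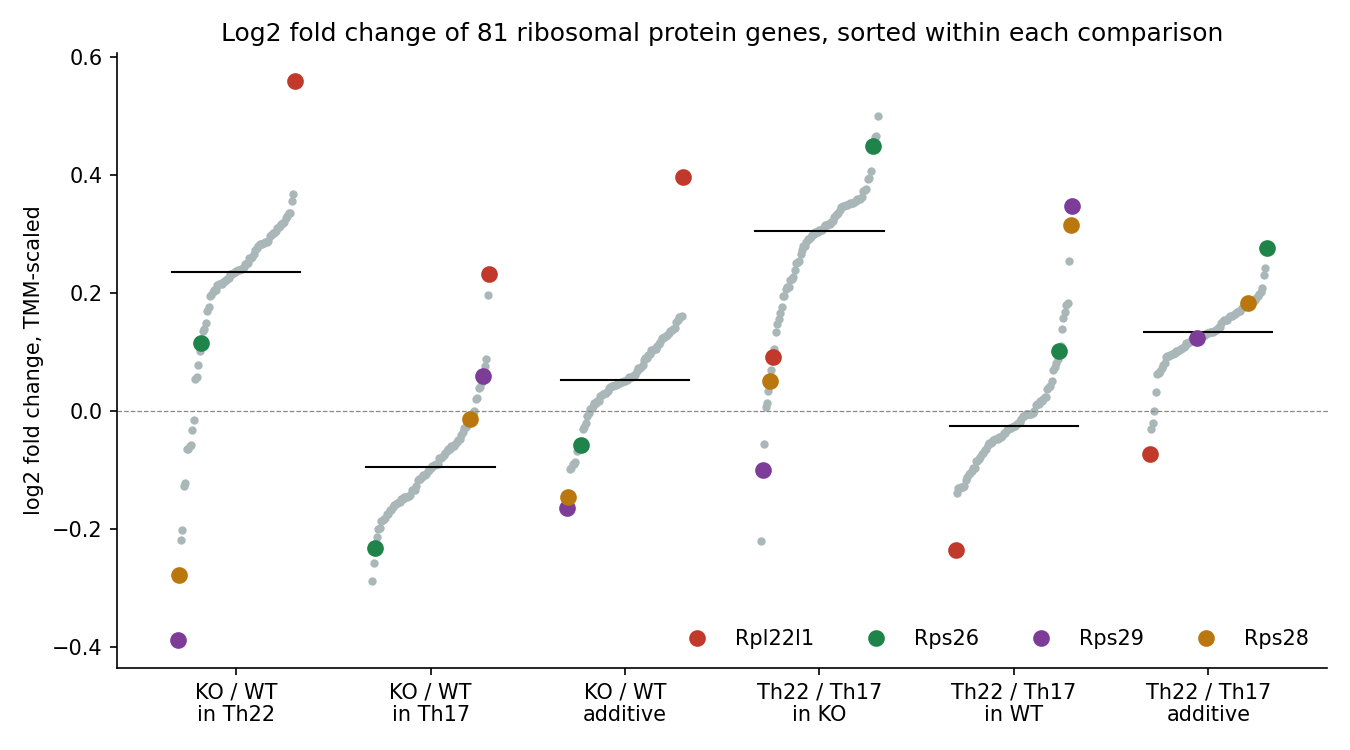
Log2 fold changes (y axis, TMM-scaled) of 81 members, each point 1 gene, sorted within each comparison (x axis); lines are the median of all 82 tested members, and Rpl39l is not drawn. The family lies above 0 for KO against WT in Th22 and for Th22 against Th17 in KO, with Rpl22l1 (red), Rps29 (purple) and Rps28 (brown) apart from it.

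Over both genotypes no member passed the edgeR threshold for Th22 against Th17, where 1.94% of all genes did, and 4 had an unadjusted p under 0.05, against 14.5%. DESeq2 also called none, against 4.12%. The members' median was 0.13, with 78 of 82 positive, against 6831 of 13412 over all genes. Farthest above it stood Rps26 at 0.28 ± 0.11 (edgeR adjusted p 0.289), Rps7 at 0.24 ± 0.11 (adjusted p 0.353) and Rpl7a at 0.23 ± 0.11 (adjusted p 0.395). Lowest were Rpl22l1 at -0.07 ± 0.09 (adjusted p 0.802), Rps27rt at -0.03 ± 0.10 (adjusted p 0.94) and Rpl35 at -0.02 ± 0.10 (adjusted p 0.956). In 3 members all 4 Th22 libraries lay above the 4 Th17 libraries, against 3.46% of all genes, and in none did all lie below, against 3.13%.

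Rps26 encodes a small-subunit protein at the mRNA exit channel and lies on the minus strand of chr10:128624534-128626747. It had 4148 and 5393 CPM in KO Th22, 4467 and 4338 CPM in WT Th22, 3398 and 3589 CPM in KO Th17, and 3835 and 4371 CPM in WT Th17. The KO Th22 libraries were above the KO Th17 libraries but apart from each other, and the WT groups overlapped. Its log2 fold change for KO against WT over both polarizations was -0.06 ± 0.11 (edgeR adjusted p 0.827).

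The proportions within the family were then compared, as each gene's log2 share of the family's UMIs over the 81 genes with at least 10 CPM. The median SD of a gene's share over the 8 libraries was 0.07 on the log2 scale, and 15 genes had an SD over 0.1. The largest were Rps29 at 0.25, Rpl22l1 at 0.23, Rpl35 at 0.21, Rps27rt at 0.20 and Rps28 at 0.19. The main axis of this variation held 53.7% of it, with both KO Th22 libraries at -0.74. Replicates 1 and 2 were at 0.94 and 0.357 in WT Th22, 0.105 and 0.304 in KO Th17, and 0.192 and -0.411 in WT Th17. The axis therefore also held spread between replicates. Rps29, Rps28, Rpl38, Rps27rt, Rpl35 and Rps27 had the highest loadings, and Rpl22l1, Rps23, Rpl9, Rpl27 and Rps18 the lowest. The 10 genes with the highest loadings had a median coding length of 252 bases, against 468 bases in the other 71, and Spearman's rho between loading and coding length was -0.47 across the 81 genes. All genes share the same libraries and depth, so this is a description.

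The deposited data assign each cell to 1 of 12 numbered clusters. The genes were among those that could shape the clusters, so differences between clusters are described without a test. A cluster's mean share of UMIs from the family over the 8 libraries ran between 40.9% ± 1.28 in cluster 7, whose leading other genes were gamma-delta T cell receptor and granzyme genes (Trdc, Trgv2, Gzmc), and 51.1% ± 2.48 in cluster 9. Cluster 0, the largest with 39805 cells and led by Vps37b and Pik3ip1, had 49.3% ± 1.41. Cluster 2, led by Il17a, Il17f and Il22, had 44.1% ± 1.44, and the mitotic-gene clusters 3 and 10 had 45.2% ± 1.65 and 45.0% ± 1.05 (SD, n = 8 each). In cluster 9 mitochondrial transcripts were 0.177% to 2.05% of a library's UMIs, against 1.66% to 2.9% in the other clusters.

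In 11 of 12 clusters, all but cluster 10, both KO Th22 libraries had a higher share than both KO Th17 libraries, by 2.32 to 5.33 percentage points on average. In 7 of 12 both were above both WT Th22 libraries. The WT Th22 mean was above the WT Th17 mean in 6 of 12. The clusters are parts of the same 8 libraries, so agreement between clusters is not independent evidence.

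**Figure D4:**
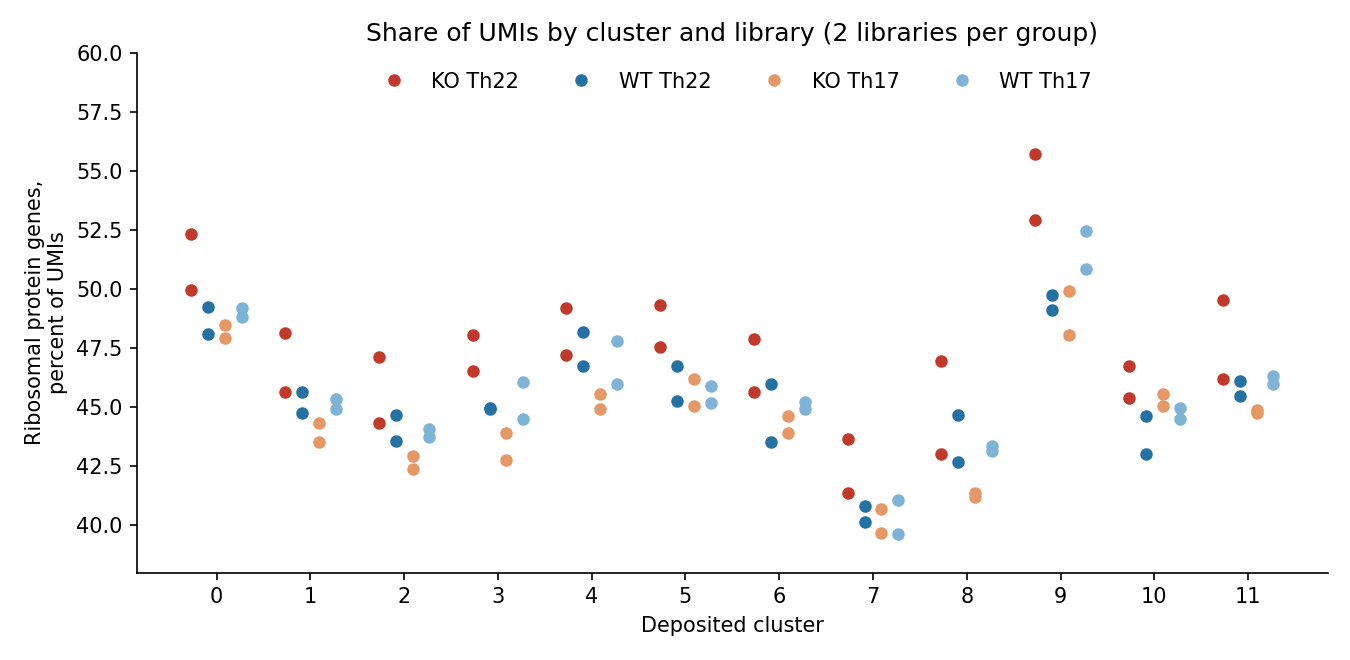
Percent of UMIs from the 83 genes (y axis, starting at 38%) in each deposited cluster (x axis), each point 1 library and coloured by group, KO Th22 leftmost. Cluster 7 is lowest and cluster 9 highest, and KO Th22 points lie above KO Th17 points in every cluster but cluster 10.

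The edgeR test was also run within the 10 clusters with at least 50 cells in every library. For KO against WT the share of all genes called was 1.23%, 7.43%, 2.4%, 0.429%, 0.818%, 0.21%, 0.38%, 0.247%, 0.381% and 0.227% in clusters 0 to 9 in that order, and clusters 1 and 2 had a called member, Rpl22l1 in both. Its log2 fold change was 0.43 ± 0.08 in cluster 1 (adjusted p 0.00768) and 0.37 ± 0.09 in cluster 2 (adjusted p 0.0346). Rpl22l1 was higher in KO in all 10 clusters, by 0.21 to 0.43, including 0.41 ± 0.10 in cluster 0 (adjusted p 0.0941). These clusters share the same 8 libraries, so their agreement is not independent evidence. The call in cluster 1, whose leading genes include the ribosome assembly genes Nolc1 and Nop56, held when any 1 library was left out. The call in cluster 2 was lost in 6 of the 8 such fits, all but those that left out replicate 1 of KO Th22 or replicate 2 of WT Th17 (edgeR adjusted p up to 0.178, without WT Th22 replicate 2), and with a replicate block (adjusted p 0.0531).

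For Th22 against Th17 the share of all genes called was 0.701%, 3.07%, 2.26%, 0.572%, 0.396%, 0.255%, 0.434%, 0.481%, 1.69% and 0.364% in clusters 0 to 9 in that order. The same fits called 1 member, Rps26 in cluster 8, at 0.49 ± 0.12 (edgeR adjusted p 0.0277). Cluster 8 was led by Ccl5 and the interferon-induced gene Isg15. Rps26 was higher in Th22 in all 10 clusters, by 0.23 to 0.49, again over the same 8 libraries. The edgeR call in cluster 8 was lost without KO Th17 replicate 1 (adjusted p 0.124), WT Th17 replicate 1 (adjusted p 0.105) or WT Th22 replicate 2 (adjusted p 0.0789).

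Between clusters, most members kept a steady part of the family: the median SD of the log2 share over the 12 clusters was 0.06, and 10 genes had an SD over 0.1. Among the largest were Rps27l at 0.44, Rps26 at 0.29, Rps25 at 0.18 and Rps6 at 0.14. Rps27l, a p53 target gene in human and mouse cells, was highest in cluster 6, whose leading other genes include Cdkn1a and Phlda3, which are p53 targets too. It gave 0.164% ± 0.015 of the family's UMIs in cluster 6 and 0.0496% ± 0.004 in cluster 0 (SD, n = 8 each). The lowest library of cluster 6 had 0.145% and the highest library of cluster 0 had 0.0557%, so the clusters did not overlap in any group. Its level over all cells hardly moved with polarization, with a log2 fold change of 0.00 ± 0.08 for Th22 against Th17.

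Rps26 stood out in cluster 9. There it gave 1.56% ± 0.168 of the family's UMIs, against 0.852% ± 0.064 in cluster 0 and 0.949% ± 0.074 in cluster 1, and it was above the whole-library share in all 8 libraries. In cluster 9 its share was 1.59% and 1.67% for the KO Th22 libraries, against 1.7% and 1.74% for the WT Th22 libraries. It was 1.31% and 1.3% for the KO Th17 libraries, against 1.59% and 1.61% for the WT Th17 libraries, so the KO Th17 libraries were lowest. Outside cluster 9, in cells with more than 0.5% and at most 1% mitochondrial UMIs, it gave 0.828% ± 0.0646, and in cells with more than 4% it gave 0.994% ± 0.0587 (SD, n = 8 each). In all kept cells with at most 0.5% mitochondrial UMIs it gave 1.33% ± 0.159, and 0.931% ± 0.138 when cluster 9 was left out. Its share was also lower in deep cells, at 0.968% ± 0.0663 in the shallowest of 5 equal bins of each library's cells and 0.822% ± 0.07 in the deepest. The part of RNA quality and depth in the Rps26 values was not tested.

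Cluster 11, with 539 cells and led by transcripts such as Gm10827 and Olfr655, had a different mix. Rps26 gave 1.26% ± 0.132 of the family's UMIs there and Rps25 gave 0.639% ± 0.07 (SD, n = 8 each). Both, and Rps6, Rpl5 and Rpl31, were above the whole-library share in all 8 libraries. Rps4x and Rpl24 were below it in all 8, with log2 ratios of -0.45 and -0.35.

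**Figure D5:**
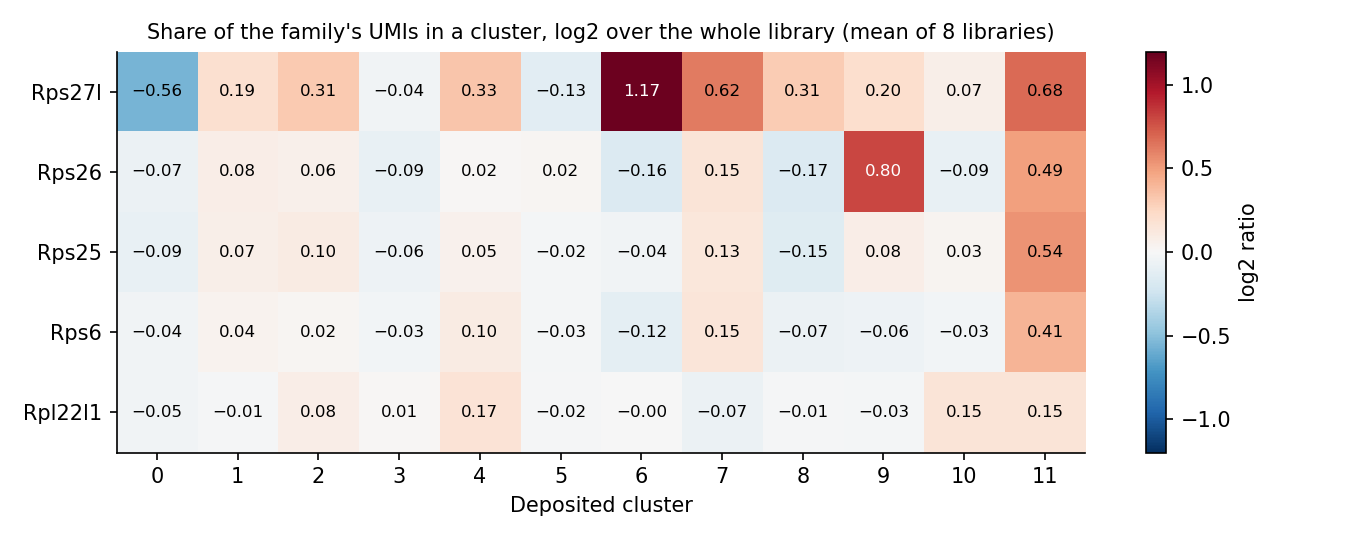
Mean log2 ratio over 8 libraries (colour and number) of a gene's share of the family's UMIs in a deposited cluster (columns) to its share in the whole library, for 5 genes (down the page). Rps27l stands out in cluster 6 at 1.17, Rps26 in cluster 9 at 0.80 and Rps25 in cluster 11 at 0.54, while Rpl22l1 stays between -0.07 and 0.17.

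Related genes outside the family were examined as lists. Of 78 mitochondrial ribosomal protein genes, 1 (Mrpl35, 0.41 ± 0.08, edgeR adjusted p 0.0394) was called higher in KO over both polarizations, against 2.93% of all genes, with a list median of 0.14 and 68 of 78 positive, against 6703 of 13412 over all genes. None was called for Th22 against Th17, where the median was 0.05. Of 13 genes for escort and assembly of ribosomal proteins, such as Tsr2, which escorts Rps26 in yeast, none was called in either comparison. All 13 had positive fold changes for KO against WT, with a median of 0.21, while 2 of 13 were positive for Th22 against Th17, with a median of -0.09. Over all genes 6703 and 6831 of 13412 were positive in these 2 comparisons. Of 17 other TOP mRNAs, such as Eef1a1 and Tpt1, none was called in either comparison, with medians of 0.05 and 0.05. Within groups they had medians of 0.20 for KO against WT in Th22 (15 of 17 positive), -0.08 in Th17 (3 of 17), 0.23 for Th22 against Th17 in KO (15 of 17), -0.06 in WT (6 of 17) and 0.31 for the interaction (15 of 17), with none called. The ribosomal protein genes had medians of 0.24, -0.09, 0.31, -0.03 and 0.35 in the same order. None of the 3 tested fusion and scaffold genes, such as Rack1, and none of 11 genes of the Larp1, mTOR and S6 kinase group was called.

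Of the markers, Cd4 was called lower in KO (-0.36 ± 0.08, edgeR adjusted p 0.0441), as was Pecam1, an endothelial marker also found on T cells (-0.67 ± 0.13, adjusted p 0.0352). Cd3g (0.53 ± 0.08, adjusted p 0.0123) and Cd3d (0.39 ± 0.08, adjusted p 0.0474) were called higher in Th22. The T cell markers summed to 3593 to 3680.0 CPM in KO Th22, 4201 to 4416 CPM in WT Th22, 2981 to 3124 CPM in KO Th17 and 3569 to 3622 CPM in WT Th17. In these 2 comparisons no other marker of B, myeloid, CD8, NK, gamma-delta or stromal cells was called, and none of the erythroid markers passed the filter, with a summed level of at most 0.794 CPM. The part of these differences in the ribosomal protein values was not tested.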

How the data were processed

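Single-cell 3-prime libraries (10x v3) from 8 samples were deposited as 1 matrix of UMI counts with a table of library, mitochondrial percent and cluster for each cell. The submitters' processing notes name Cell Ranger 5.0.1, Seurat and the mm10 build, with no further settings. The authors' deposited counts are raw UMI counts, and the mitochondrial percent per cell is the authors' deposited value; the labels do not state how doublets were treated. The members and gene lists were chosen with earlier results of these data known.

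Cells with fewer than 500 genes or more than 10% mitochondrial UMIs were removed (2972 cells), and UMIs were summed per library, and per library and cluster. No doublet caller was run; a fit without the 8% of cells with the most UMIs stands in for it. Fits used edgeR 4.0.16 in R 4.3.3 (quasi-likelihood F test, TMM, filterByExpr, Benjamini-Hochberg over all 13412 genes tested) on all 8 libraries. KO against WT and Th22 against Th17 over both levels of the other factor used an additive model, and the other comparisons used group means. A gene was called at an adjusted p under 0.05. DESeq2 1.42.0, other scalings, cell sets, left-out libraries and blocks were alternatives, and shares were tested by exact permutation (Python 3.11.15). The fit was tested on simulated data. CPM values are scaled by TMM, except those of Gpr65 and the summed markers, which are per library total. Libraries of a group differed by more than counting noise (chi-square per degree of freedom 15.9 to 56.7), so none was counted as a duplicate. Gene positions and coding lengths are from GENCODE M21 and start regions from RefSeq, both on GRCm38.

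Named genes were those farthest from the members' median in the fits over both levels (3 each way), called members, the highest and lowest levels (3 each), the 5 largest SDs of family share over libraries and over clusters, paralog pairs, stalk genes and Rps26, and called genes of the lists. A few others are named where a count of 5 or fewer or a loading was given; those were chosen after their values were seen. Some genes that the rule names are not reported here.

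Replicate numbers were checked for pairing over 6339 genes with at least 10 CPM. Deviations from the group means of same-numbered libraries correlated at 0.883 between KO Th17 and KO Th22 and at 0.641 between WT Th17 and WT Th22, and at -0.465 to -0.555 between genotypes. Over the 81 members alone the 2 correlations within a genotype were 0.493 and 0.292. With 2 libraries per group the deviations mirror each other, so each is 1 value. The labels do not state a pairing; the numbers were taken to pair libraries within a genotype from these correlations alone.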

Additional observations from a re-analysis of the deposited data

How the results depend on the processing

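Of the 7 counts of called members, each 0 with edgeR, several became positive. For KO against WT over both polarizations 1 member was called with library totals alone, with scaling to the members' UMIs, with DESeq2, without the filter on low counts, with cells thinned to 1500 UMIs and, over leave-one-out fits, 0 to 1. Leave-one-out fits aside, the share of all genes called was 2.32%, 2.05%, 7.02%, 2.53% and 2.01% in that order. DESeq2 called 1 for KO against WT in Th22 (1.07% of all genes) and 2 for Th22 against Th17 in KO (1.35%). The replicate block of genotype and number called 2 for Th22 against Th17 in WT (12.9% of all genes) and 50 in KO (16.9%). For the interaction it called 8 (4.1%), in a fit not planned in advance. For Th22 against Th17 over both genotypes it called 0 (11.9%). For KO against WT the libraries summed by genotype and number (replicate block) called 0, with 0.0431% of all genes called. The block by number alone left the clusters with a called member at 1, against 2 in the fit without it. Because the correlations between genotypes were negative, crossed numbers were also tried; a crossed replicate block, chosen after seeing the data, called 2 members in Th22 (1 higher, 1 lower; 3.64% of all genes), 1 over both polarizations (11.7%) and 0 in Th17 (4.96%).

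Leaving out 1 library gave 1 to 4 clusters with a called member for KO against WT (4 without WT Th17 replicate 2), a difference in share for KO minus WT of -0.321 to 1.16 percentage points (reversed without KO Th22 replicate 2), and for Th22 minus Th17 of 0.86 to 2.1. The exact sign-flip test over same-numbered pairs (replicate block) gave p = 0.75 for KO minus WT, whose pairs cross genotypes, and 0.375 for Th22 minus Th17; the smallest p it can give is 0.125. The other settings of the shares kept their direction; their exact tests could not reach 0.05.

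Log2 fold changes near 0 changed sign. For KO against WT, Rps26 ran between -0.169 and 0.018 when 1 library was left out, and was positive without WT Th17 replicate 2. For Th22 against Th17, Rpl22l1 ran between -0.121 and 0.0141 (positive without the same library), Rps27rt between -0.112 and 0.0341 (positive in 3 of these fits) and Rpl35 between -0.0964 and 0.033 (positive without any 1 KO library). Rps27rt was 0.000299 with thinned cells. The causes were not tested.

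With 2 libraries per group, each value rests on few samples. Rpl39l, with 458 UMIs, could not show changes of the size seen in the other members. Intervals for counting error are not given, because library spread was larger. Members take 45.0% to 49.4% of a library's UMIs, so a fold change of the family depends on the scaling. With library totals the median of all genes moved to -0.15 for Th22 against Th17 in KO and the members' median to 0.14.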
